A study of Mus musculus with 4 samples.

Results

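The genes described here encode the machinery that copies DNA in S phase, the nucleotides it uses and the regulators that let a cell enter S phase. They are 42 genes listed by name, all of them found among the 25814 genes of the deposited tables and all 42 expressed highly enough to be tested. The RNA came from keratinocytes (KCs), the cells that build the epidermis. They were prepared from the tails of adult 129/sv mice and cultured without further treatment in serum-free medium with 0.06 mM Ca++, a low level that keeps KCs in a basal, dividing state. The labels give 2 libraries as Wildtype (WT1 and WT2, with their replicate numbers) and 2 as Nfat5-Knockout (KO1 and KO2), that is, from Nfat5-/- mice, whose gene for the osmosensitive transcription factor NFAT5 is disrupted. WT animals were littermates, the tails of both genotypes travelled overnight on ice before KCs were prepared, and small size, kidney atrophy and permanent hypernatremia are given for the 129/sv animals without saying for which genotype. How the Nfat5 allele was disrupted is not given in the sources used here, and neither are the sex, the exact age and the time in culture of each preparation.

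Replication starts at origins, where the origin recognition complex, Cdc6 and Cdt1 load the ring-shaped Mcm2 to Mcm7 helicase onto DNA before S phase. Cdc45, the GINS complex and Mcm10 then switch the helicase on, and DNA polymerases follow the unwound fork, held to the template by the sliding clamp PCNA. Many of these genes are transcribed late in G1 by E2F transcription factors, and their RNA is therefore commonly taken as a mark of proliferating cells. In the epidermis, dividing cells lie in the basal layer, and KCs leave the cell cycle as they differentiate.

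Gene reads numbered 16219445 in WT1, 21612980 in WT2, 23494436 in KO1 and 18645422 in KO2, so that 3 reads corresponded to between 0.128 and 0.185 CPM (gene reads scaled to the library total). Replicates of a genotype differed by more than counting error (chi-square per degree of freedom 16.7 for WT and 17.3 for KO), and each library was counted as a sample. The first principal component separated WT from KO. The reads of Nfat5 itself did not separate them, with 408 in WT1, 929 in WT2, 715 in KO1 and 770 in KO2, which corresponds to 1.67, 3.002, 2.02 and 2.78 RPKM (reads scaled to exon length and library size). A gene-wide number does not show whether a piece of the gene is missing, so the genotypes were not checked by it and KO stands for the label. NFAT5 protein was examined in the study by western blot, which is not analysed here. Over all 12614 genes tested with the quasi-likelihood test of edgeR, 160 passed an adjusted p of 0.05, 119 with higher and 41 with lower RNA levels in KO. This number was 268 without WT1 (2.05% of genes tested), 478 without WT2 (3.70%), 31 without KO1 (0.240%) and 16 without KO2 (0.122%). Since the labels do not tell litters or days of culture apart, p-values measure the spread between these libraries only.

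None of the 42 replication genes passed the test across all genes, although all 42 had a lower estimate in KO than in WT. Their log2 fold changes ran from -0.72 for Cdc6 to -0.03 for Dnmt1 with a median of -0.35, against a median of -0.01 over all genes, of which 52.0% had a lower estimate. The share of all genes called by edgeR was 1.27%, and 0.325% were called as lower. The smallest adjusted p of a replication gene was 0.120, for Pole. At an unadjusted p under 0.05, edgeR found 17 replication genes, each with a lower estimate, against 6.47% of all genes with such a p and a lower estimate. DESeq2 called 1 of the 42, Mcm6, where it called 3.39% of all genes, and limma-trend called 0 (1.35% of all genes). Without the filter on low counts edgeR called 11 (6.30% of all genes), with the replicate number as a block 0 (1.05%), and with crossed replicate numbers as a block 13 (9.05%). Of the 42, 0 were called with any library left out. In 29 of the 42 genes, both KO libraries lay below both WT libraries, a pattern that 25.0% of all genes showed. That share, and the 6.47% for an unadjusted p with a lower estimate, are the background of the same counts within each role. Since the genes were listed with earlier results of these data known, these counts describe them and test nothing. In whole cultures, fewer cells in S phase and less of these RNAs per cell cannot be told apart.

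KO1 and KO2 differed from each other more than WT1 and WT2 did, and KO2 lay further from WT. The summed level of the 42 genes was 718 RPKM in WT1, 709 in WT2, 658 in KO1 and 475 in KO2. KO1 stood at a median of 89.4% of the WT mean, with a range over genes from 65.2% to 108%, and KO2 at a median of 66.0%, with a range from 44.3% to 101%. KO2 lay below KO1 in 41 of the 42 genes, Gins3 being the exception, against 56.2% of all genes. KO1 was below both WT libraries in 30 genes (33.9% of all genes) and KO2 in 40 (42.8% of all genes). With KO2 left out, the median log2 fold change was -0.16, 38 of 42 estimates were below 0 against 51.5% of all genes, and 5 genes had an unadjusted p under 0.05 with a lower estimate, against 3.11% of all genes. With KO1 left out, the median was -0.57, 41 estimates were below 0 against 52.6% of all genes, and 35 genes had such a p, against 5.75% of all genes. Leaving out WT1 also lowered that number, from 17 to 9, against 4.05% of all genes.

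**Figure D1:**
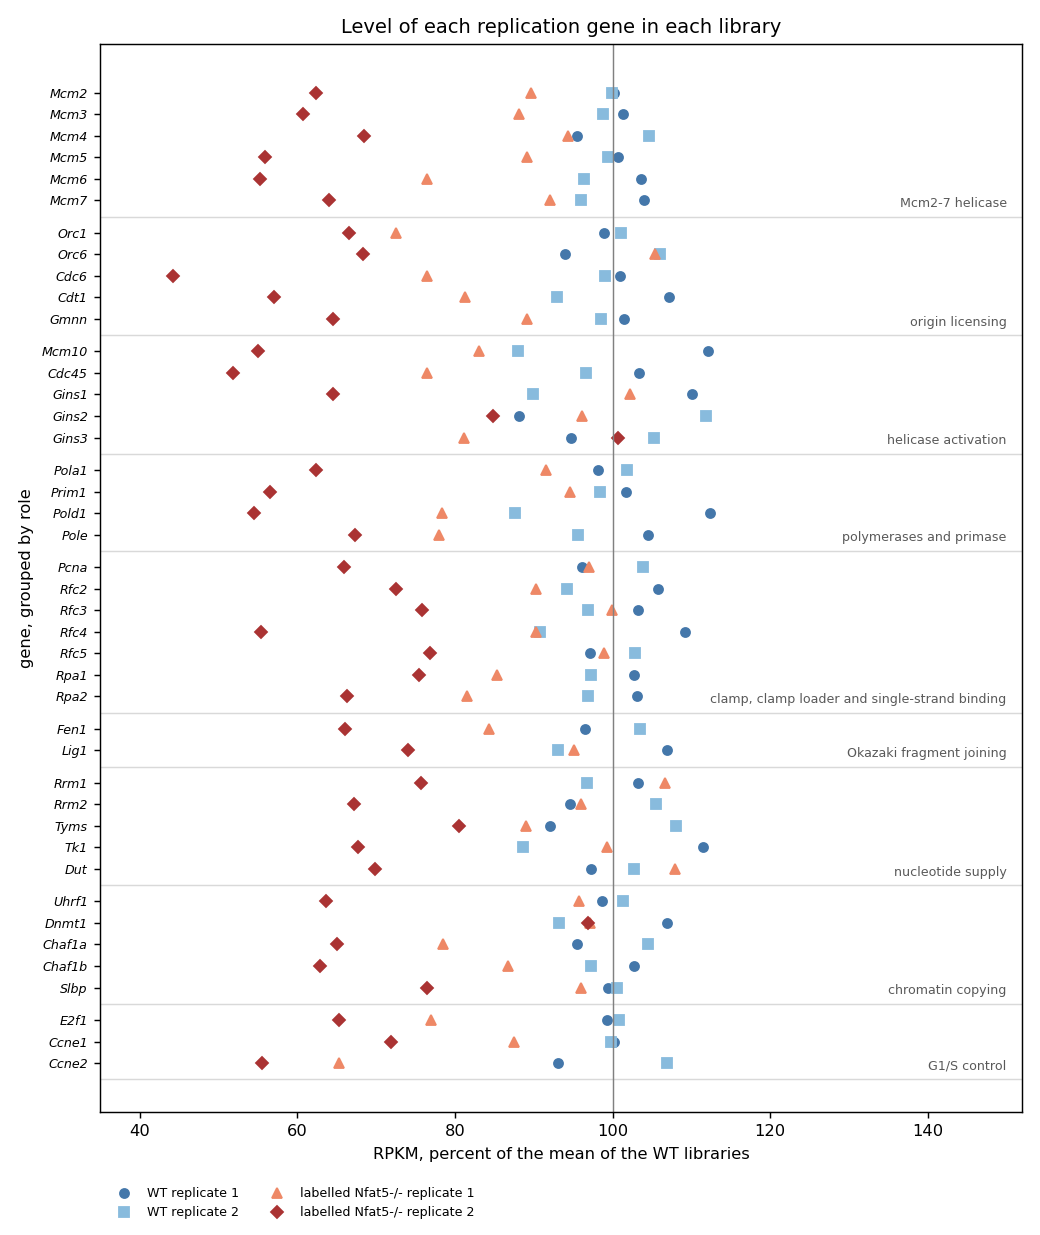
RPKM of each of the 42 replication genes in each of the 4 libraries, as a percentage of the mean of the WT libraries for that gene (x axis), with genes grouped by role (y axis). KO2 (dark diamonds) lies around its median of 66.0%, KO1 (light triangles) around 89.4%, and the WT libraries lie around the line at 100%.

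The helicase subunits Mcm2 to Mcm7 form a ring in which each protein is present once, and their RNA levels were close to each other. All 6 genes were lower in KO1 and KO2 than in either WT library, which 25.0% of all genes were, and 3 of them, Mcm2, Mcm3 and Mcm6, had an unadjusted p under 0.05, which 6.47% of all genes had with a lower estimate. Mcm6 (ENSMUSG00000026355, chr1:128331590-128359664 on GRCm38, minus strand) measured 20.5 RPKM in WT1, 19.0 in WT2, 15.1 in KO1 and 10.9 in KO2. The fitted log2 fold change, given here with its standard error (SE), was -0.59 ± 0.15, and the adjusted p was 0.136 by edgeR and 0.0331 by DESeq2. KO1 stood at 76.4% and KO2 at 55.2% of the WT mean, the lowest values of the 6 subunits in either library. Mcm3 (ENSMUSG00000041859, chr1:20802968-20820312, minus strand), the most abundant of the 6 by RPKM, measured 30.4 RPKM in WT1, 29.6 in WT2, 26.4 in KO1 and 18.2 in KO2. The estimate was -0.41 ± 0.16 SE on the log2 scale (edgeR adjusted p = 0.316). Mcm5 gave 27.6 RPKM in WT1, 27.3 in WT2, 24.5 in KO1 and 15.4 in KO2, and Mcm2 gave 25.1 RPKM in each WT library, 22.5 in KO1 and 15.7 in KO2. Mcm4 had 21.9 (WT1), 23.9 (WT2), 21.6 (KO1) and 15.7 RPKM (KO2), and Mcm7 had 29.2 (WT1), 27.0 (WT2), 25.9 (KO1) and 18.0 RPKM (KO2). In both, KO1 was only just below the lower WT library. Mcm6 was the lowest and Mcm3 the highest subunit in every library, and the ratio of Mcm3 to Mcm6 was 1.48 in WT1, 1.56 in WT2, 1.75 in KO1 and 1.67 in KO2.

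The promoters of Mcm6 and Mcm5 are printed because each holds a pair of overlapping E2F-type matches, the octamer that E2F factors recognise at S-phase genes, in which a form on one strand runs into another form on the opposite strand. The lines give the 250 bases before the start site of RefSeq on GRCm38.p6, 5′ to 3′ on the gene's own strand, with matches to TTTCCCGC, TTTCGCGC, TTTGCCGC or TTTGGCGC on either strand in capitals. For Mcm6 the window is chr1:128359706-128359955 on the minus strand, and its matches begin 110, 106 and 47 bases before the start site. For Mcm5 it is chr8:75109259-75109508 on the plus strand, with matches that begin 153 and 149 bases before the start site.
Mcm6: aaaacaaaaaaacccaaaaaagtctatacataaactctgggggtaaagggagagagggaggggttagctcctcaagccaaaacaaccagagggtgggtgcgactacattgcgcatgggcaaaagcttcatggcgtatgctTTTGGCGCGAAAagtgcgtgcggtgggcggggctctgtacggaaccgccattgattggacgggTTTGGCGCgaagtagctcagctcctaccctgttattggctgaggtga
Mcm5: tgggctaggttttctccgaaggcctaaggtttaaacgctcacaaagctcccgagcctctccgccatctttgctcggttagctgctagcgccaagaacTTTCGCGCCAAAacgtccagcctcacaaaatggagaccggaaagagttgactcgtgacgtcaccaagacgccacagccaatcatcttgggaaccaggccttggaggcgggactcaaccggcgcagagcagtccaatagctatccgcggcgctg

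Licensing genes load the helicase. Of the 5 measured, 4 did not overlap between the genotypes (Orc1, Cdc6, Cdt1 and Gmnn), and Orc1, Cdc6 and Cdt1 had an unadjusted p under 0.05 (25.0% and 6.47% of all genes). Orc1 (ENSMUSG00000028587, chr4:108579423-108614833, plus strand), the subunit of the origin recognition complex whose amount varies most over the cell cycle, measured 4.21 RPKM in WT1, 4.30 in WT2, 3.09 in KO1 and 2.83 in KO2. Here KO1 and KO2 were close to each other, at 72.5% and 66.6% of the WT mean. The estimate was -0.55 ± 0.15 SE on the log2 scale (edgeR adjusted p = 0.153). The loader Cdc6 had 3.35 RPKM in WT1, 3.29 in WT2, 2.54 in KO1 and 1.47 in KO2, and its value in KO2, 44.3% of the WT mean, was the lowest of all 42 genes. Cdt1 (ENSMUSG00000006585, chr8:122568015-122573554, plus strand), which brings the helicase to the origin, measured 20.3 (WT1), 17.6 (WT2), 15.4 (KO1) and 10.8 RPKM (KO2) (log2 fold change -0.52 ± 0.17 SE, edgeR adjusted p = 0.240). Only 25.0% of the exon reads of Cdt1 were placed at a single site, and those reads gave a log2 fold change of -0.53. The Cdt1 inhibitor geminin (Gmnn) measured 13.3 RPKM in WT1, 12.9 in WT2, 11.6 in KO1 and 8.44 in KO2. Orc6 gave 8.52 RPKM in WT1, 9.60 in WT2, 9.55 in KO1 and 6.18 in KO2, so that KO1 lay within the WT range.

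The E2F-type matches of Orc1 and Cdc6 are shown with the bases around them, to be set beside those of the helicase genes. The site of Orc1 lies at chr4:108579416-108579445 on the plus strand and its match begins 27 bases before the start site of RefSeq. The gene coordinates of the deposited tables begin 31 bases before that start site, so by them the match lies inside Orc1. The site of Cdc6 lies at chr11:98908002-98908031 on the plus strand, with a match 138 bases before the start site of RefSeq, and by the deposited coordinates this match too lies inside its gene. Capitals mark the match, which reads on the opposite strand in both genes.
Orc1: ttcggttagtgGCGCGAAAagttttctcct
Cdc6: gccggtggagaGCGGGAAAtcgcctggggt

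Of the 5 activators of the loaded helicase, 2 did not overlap between the genotypes (Cdc45 and Mcm10), against 25.0% of all genes. Cdc45 (ENSMUSG00000000028, chr16:18780447-18811987, minus strand), which joins the helicase at the moving fork, measured 7.18 RPKM in WT1, 6.72 in WT2, 5.31 in KO1 and 3.61 in KO2. The estimate was -0.62 ± 0.20 SE on the log2 scale (edgeR adjusted p = 0.221). Mcm10, a scaffold of the activated helicase, gave 2.95 (WT1), 2.32 (WT2), 2.19 (KO1) and 1.45 RPKM (KO2), again with no overlap. By contrast, the GINS subunits overlapped between the genotypes. Gins1 measured 6.25 RPKM in WT1, 5.11 in WT2, 5.81 in KO1 and 3.66 in KO2. Gins2 measured 5.44 (WT1), 6.91 (WT2), 5.94 (KO1) and 5.24 RPKM (KO2) (log2 fold change -0.13 ± 0.15 SE, edgeR adjusted p = 0.756), and 20.1% of its exon reads were placed at a single site. Those reads gave a log2 fold change of -0.018. Gins3, the lowest of the 42 genes, had 1.11 (WT1), 1.23 (WT2), 0.950 (KO1) and 1.18 RPKM (KO2) and was the only gene in which KO2 exceeded KO1.

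Among the polymerase genes, all 4 were lower in both KO libraries than in either WT library (25.0% of all genes), with medians of 84.9% of the WT mean in KO1 and 59.4% in KO2. Pole (ENSMUSG00000007080, chr5:110286306-110337474, plus strand), the catalytic subunit of the polymerase that copies the leading strand, had the smallest p of the 42 genes. It measured 6.22 RPKM in WT1, 5.69 in WT2, 4.64 in KO1 and 4.01 in KO2 (log2 fold change -0.47 ± 0.11 SE, edgeR unadjusted p = 0.00441, adjusted p = 0.120). Pold1 (ENSMUSG00000038644, chr7:44532746-44548849, minus strand), the catalytic subunit of the polymerase of the lagging strand, gave 16.8 (WT1), 13.1 (WT2), 11.7 (KO1) and 8.15 RPKM (KO2) (log2 fold change -0.57 ± 0.19 SE, edgeR adjusted p = 0.238). Here the WT libraries also stood apart from each other. The primer-making enzyme was measured by Pola1, with 4.37 RPKM in WT1, 4.53 in WT2, 4.07 in KO1 and 2.77 in KO2, and by the primase Prim1, with 11.4 (WT1), 11.0 (WT2), 10.6 (KO1) and 6.32 RPKM (KO2). In both genes KO1 was just below the WT libraries, whereas KO2 stood at 62.4% of the WT mean for Pola1 and at 56.5% for Prim1. Pola1 and Pold1 each held 1 E2F-type match, the first at chrX:93632275-93632304 on the minus strand, beginning 138 bases before the start site, and the second at chr7:44548766-44548795 on the minus strand, beginning 39 bases after it. They are shown because the first stands before and the second after a start site, and they are different forms of the octamer.
Pola1: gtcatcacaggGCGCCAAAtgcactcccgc
Pold1: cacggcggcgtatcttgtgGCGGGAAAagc

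The sliding clamp, its loader and the single-strand binding proteins included one of the most abundant RNAs of the 42. Pcna (ENSMUSG00000027342, chr2:132249162-132253314, minus strand) measured 67.4 RPKM in WT1, 72.8 in WT2, 68.0 in KO1 and 46.2 in KO2. KO1 thus lay between the WT libraries and KO2 far below them (log2 fold change -0.28 ± 0.17 SE, edgeR adjusted p = 0.505). Of the exon reads of Pcna, 48.8% were placed at a single site. Rpa1 (ENSMUSG00000000751, chr11:75298166-75348324, minus strand), the large subunit of the protein that coats single-stranded DNA, showed no overlap between the genotypes. It measured 21.2 RPKM in WT1, 20.1 in WT2, 17.6 in KO1 and 15.6 in KO2 (log2 fold change -0.29 ± 0.10 SE, edgeR adjusted p = 0.265). Its partner Rpa2 gave 9.88 (WT1), 9.28 (WT2), 7.81 (KO1) and 6.35 RPKM (KO2). Of the clamp loader subunits, Rfc2 measured 11.4 (WT1), 10.2 (WT2), 9.76 (KO1) and 7.84 RPKM (KO2), and Rfc4 measured 8.81 (WT1), 7.33 (WT2), 7.28 (KO1) and 4.47 RPKM (KO2). Neither overlapped between the genotypes, although for Rfc4 KO1 and WT2 nearly met. Rfc3 and Rfc5 did overlap, with KO1 at 99.9% and 98.9% of the WT mean and KO2 at 75.8% and 76.8%.

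Fen1 (ENSMUSG00000024742, chr19:10199132-10204169, minus strand), the nuclease that trims Okazaki fragments, the short pieces in which the lagging strand is made, measured 24.1 RPKM in WT1, 25.8 in WT2, 21.0 in KO1 and 16.5 in KO2. The estimate was -0.39 ± 0.13 SE on the log2 scale (edgeR adjusted p = 0.245). Lig1, the ligase that seals these fragments, gave 14.2 (WT1), 12.3 (WT2), 12.6 (KO1) and 9.81 RPKM (KO2), with KO1 inside the WT range.

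Genes of nucleotide supply stood near WT in KO1. The median of KO1 over the 5 genes was 99.3% of the WT mean, whereas KO2 was at 69.8%, and 0 of the 5 had an unadjusted p under 0.05. Ribonucleotide reductase makes deoxyribonucleotides from ribonucleotides. Its small subunit Rrm2 (ENSMUSG00000020649, chr12:24708241-24714146, plus strand), the most abundant of the 42 RNAs by RPKM, measured 72.5 RPKM in WT1, 80.9 in WT2, 73.6 in KO1 and 51.5 in KO2 (log2 fold change -0.27 ± 0.16 SE, edgeR adjusted p = 0.496). The large subunit Rrm1 gave 46.2 RPKM in WT1, 43.3 in WT2, 47.7 in KO1 and 33.9 in KO2, so KO1 exceeded both WT libraries and KO2 lay below both. Dut, which removes dUTP, showed the same order with 15.5 (WT1), 16.3 (WT2), 17.2 (KO1) and 11.1 RPKM (KO2). Thymidylate synthase (Tyms) measured 6.43 (WT1), 7.54 (WT2), 6.22 (KO1) and 5.63 RPKM (KO2) and was the only gene of the 5 without overlap (log2 fold change -0.23 ± 0.13 SE, edgeR adjusted p = 0.474). Thymidine kinase (Tk1) overlapped, with 35.4 RPKM in WT1, 28.1 in WT2, 31.5 in KO1 and 21.5 in KO2.

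The 5 genes that copy chromatin behind the fork differed among themselves. Chaf1a (ENSMUSG00000002835, chr17:56040416-56068026, plus strand), the large subunit of the chromatin assembly factor that places new histones, measured 9.27 RPKM in WT1, 10.1 in WT2, 7.62 in KO1 and 6.32 in KO2 (log2 fold change -0.46 ± 0.13 SE, edgeR adjusted p = 0.166). Chaf1b, its partner, gave 12.02 (WT1), 11.4 (WT2), 10.2 (KO1) and 7.35 RPKM (KO2). Uhrf1 (ENSMUSG00000001228, chr17:56303321-56323486, plus strand), which brings the maintenance methyltransferase to new DNA, measured 21.0 RPKM in WT1, 21.6 in WT2, 20.4 in KO1 and 13.5 in KO2 (log2 fold change -0.31 ± 0.18 SE, edgeR adjusted p = 0.472). Dnmt1, the methyltransferase itself, differed least of all 42 genes. It had 11.0 RPKM in WT1, 9.60 in WT2, 10.01 in KO1 and 9.98 in KO2, and both of the latter lay within the WT range. Slbp, which binds histone RNA, gave 10.2 (WT1), 10.3 (WT2), 9.87 (KO1) and 7.86 RPKM (KO2).

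All 3 regulators of entry into S phase had an unadjusted p under 0.05 (6.47% of all genes with a lower estimate) and no overlap between the genotypes (25.0% of all genes). E2f1 (ENSMUSG00000027490, chr2:154559407-154569892, minus strand), an activating E2F factor, measured 10.4 RPKM in WT1, 10.6 in WT2, 8.06 in KO1 and 6.84 in KO2. The estimate was -0.48 ± 0.12 SE on the log2 scale (edgeR adjusted p = 0.132). Cyclin E1 (Ccne1, ENSMUSG00000002068, chr7:38097984-38107534, minus strand), which activates the kinase that starts S phase, had 18.5 RPKM in each WT library with 16.2 in KO1 and 13.3 in KO2 (log2 fold change -0.31 ± 0.12 SE, edgeR adjusted p = 0.311). Cyclin E2 (Ccne2) was less abundant, with 2.44 (WT1), 2.81 (WT2), 1.71 (KO1) and 1.46 RPKM (KO2), and in KO1 it stood lowest of the 42 genes, at 65.2% of the WT mean. Of its exon reads, 48.0% were placed at a single site, and those reads gave a log2 fold change of -0.79 where all reads gave -0.71.

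The estimates given above with an SE, 17 in all, were each nearer to 0 without KO2. Of the helicase and its loading, Mcm6 then stood at -0.39 on the log2 scale, Mcm3 at -0.18, Orc1 at -0.53, Cdt1 at -0.30, Cdc45 at -0.38 and Gins2 at -0.057. Of the fork, Pole stood at -0.39, Pold1 at -0.35, Pcna at -0.043, Rpa1 at -0.23 and Fen1 at -0.24. Of supply, chromatin and entry into S phase, Rrm2 stood at -0.054, Tyms at -0.17, Chaf1a at -0.35, Uhrf1 at -0.058, E2f1 at -0.38 and Ccne1 at -0.19. Orc1 thus moved little, while Pcna, Rrm2, Uhrf1 and Gins2 came close to 0.

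**Figure D2:**
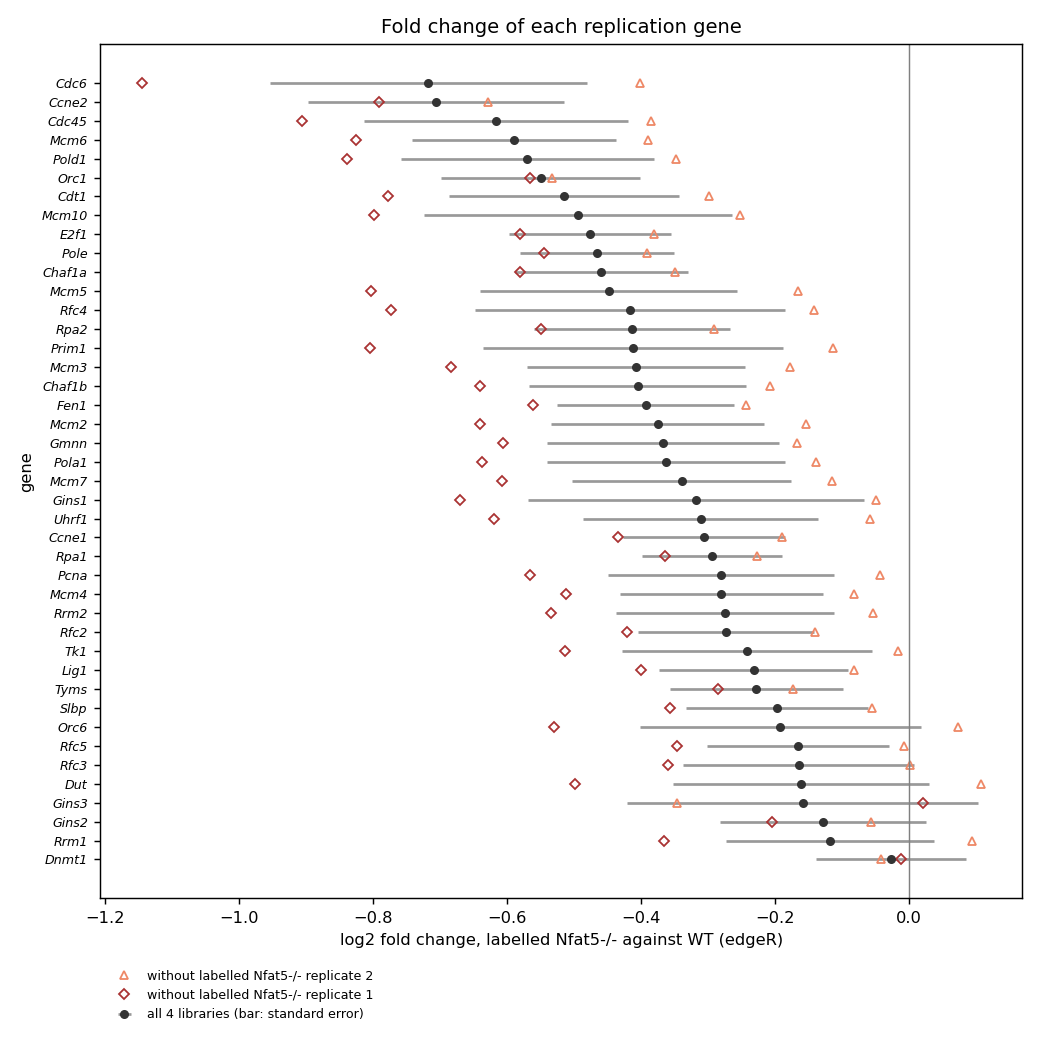
Fitted log2 fold change of each of the 42 genes, KO against WT (x axis, with a line at 0), by edgeR on all 4 libraries (filled points with standard errors), without KO2 (triangles) and without KO1 (diamonds). All filled points lie below 0, from -0.72 to -0.03, and 38 triangles and 41 diamonds do so too.

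A wider list of 67 replication and G1/S genes was read from the same fit. edgeR called 0 of them (1.27% of all genes), 18 had an unadjusted p under 0.05 with a lower estimate (6.47% of all genes) and 0 with a higher one (8.17% of all genes), and DESeq2 and limma-trend called 0 (3.39% and 1.35% of all genes). The median log2 fold change was -0.22, 57 estimates were below 0 (52.0% of all genes), and in 38 genes both KO libraries lay below both WT libraries (25.0% of all genes). KO1 stood at a median of 92.7% of the WT mean and KO2 at 73.8%. The median log2 fold change was -0.099 without KO2 and -0.41 without KO1. The genes with the smallest p were Timeless, Recql4 and Pole2. Timeless, which protects the moving fork, measured 3.91 RPKM in WT1, 3.22 in WT2, 2.35 in KO1 and 1.98 in KO2 (log2 fold change -0.71 ± 0.17 SE, edgeR adjusted p = 0.114). Recql4, a helicase that takes part in origin firing, had 1.63 (WT1), 1.16 (WT2), 0.815 (KO1) and 0.665 RPKM (KO2) (log2 fold change -0.91 ± 0.25 SE, edgeR adjusted p = 0.163). Without KO2 these estimates were -0.60 for Timeless and -0.80 for Recql4, and without KO1 they were -0.82 and -1.03. Pole2, a subunit of the leading-strand polymerase, gave 8.43 (WT1), 6.83 (WT2), 5.57 (KO1) and 3.19 RPKM (KO2) (log2 fold change -0.77 ± 0.24 SE, edgeR adjusted p = 0.217), and its estimate without KO2 was -0.47. The groups within this list differed in their medians, which was not tested. The 7 genes of fork protection had the lowest median, -0.39. The 9 further helicase activators had a median of -0.30 and the 8 further polymerase subunits one of -0.36. The 4 other subunits of the origin recognition complex had a median of -0.05 and the 4 further genes of Okazaki fragment joining one of -0.01. Medians of the groups not named here lay between -0.33 and -0.21.

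A list of 15 mitosis genes is set side by side with the replication genes. edgeR called 0 of the 15 (1.27% of all genes), with 0 at an unadjusted p under 0.05 (6.47% of all genes with a lower and 8.17% with a higher estimate). DESeq2 and limma-trend called 0 (3.39% and 1.35% of all genes). With 15 genes, counts of 0 are near these shares. Their median log2 fold change was -0.25, and 14 of 15 estimates were below 0 (52.0% of all genes). In 6 of the 15, both KO libraries lay below both WT libraries (25.0% of all genes). In KO1 the mitosis genes stood at a median of 101% of the WT mean and in KO2 at 66.1%, where the 42 replication genes stood at 89.4% and 66.0%. Without KO2, the median log2 fold change of the mitosis genes was 0.0081 and that of the replication genes -0.16. The difference between the lists was not tested. The mitotic kinase gene Cdk1 measured 14.8 RPKM in WT1, 15.3 in WT2, 15.3 in KO1 and 9.93 in KO2, and Plk1 gave 28.4 (WT1), 27.9 (WT2), 27.3 (KO1) and 18.6 RPKM (KO2). KO2 lay below both WT libraries in 13 of the 15 genes (42.8% of all genes), Cenpe and Mki67 being the exceptions. The kinesin gene Cenpe, the only one with an estimate above 0, measured 1.36 RPKM in WT1, 1.05 in WT2, 1.40 in KO1 and 1.92 in KO2, and the proliferation marker Mki67 gave 4.65 (WT1), 3.14 (WT2), 3.22 (KO1) and 4.10 RPKM (KO2).

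**Figure D3:**
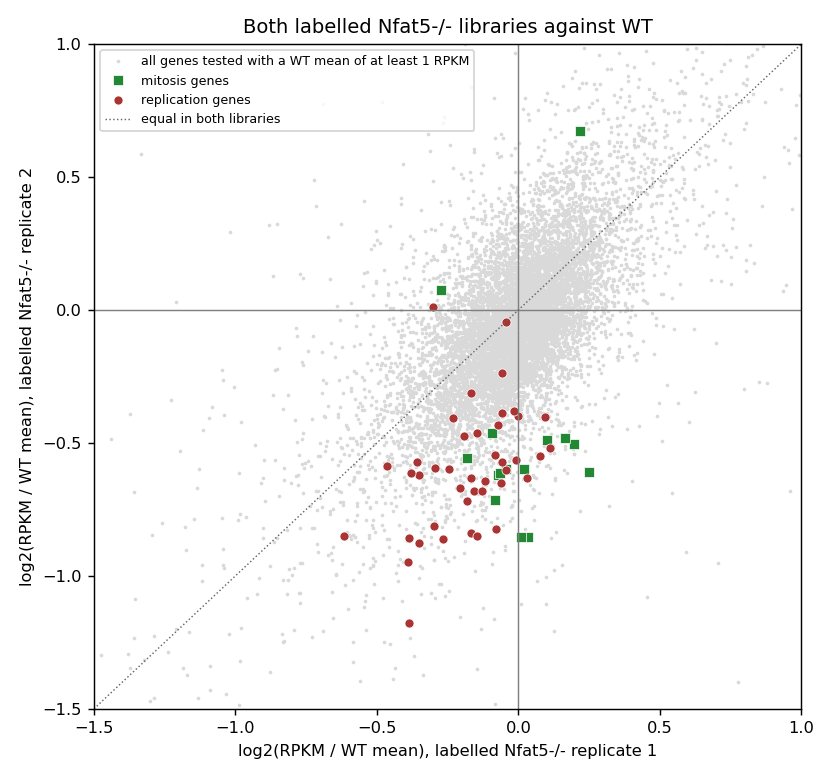
log2 ratio of RPKM to the WT mean in KO1 (x axis) and KO2 (y axis), for all genes tested with a WT mean of at least 1 RPKM (grey, those beyond the axes are not drawn), the 42 replication genes (circles) and the 15 mitosis genes (squares). Circles lie below the dotted line of equality in 41 of 42 genes, and the squares centre on 101% of the WT mean along x and 66.1% along y.

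Other measures from the same libraries were read for the 42 genes. Reads across exon junctions, placed at a single site, gave 693 CPM in WT1, 676 in WT2, 632 in KO1 and 466 in KO2. Intron reads were few, at 287 in WT1, 340 in WT2, 226 in KO1 and 183 in KO2, or 17.7, 15.7, 9.62 and 9.81 CPM. Of the 30 genes with at least 10 intron reads, 23 had a lower mean in KO, where 71.3% of all genes with that many did, and 18 did not overlap, against 37.5% of all such genes. The first count is near its background. The genes Pole, Tk1 and Lig1 held 30.3% of these intron reads. Exons of 16 of the 42 genes overlap an exon of another gene in GENCODE M21, and for 10 of them the other gene has at least 10% as many reads. Whether reads were counted by strand is not given, and without strand the reads of such pairs cannot be told apart. Mcm7, Orc6, Cdc45, Gins2, Rfc4, Rfc5, Fen1, Lig1, Chaf1a and Ccne2 are the 10. In 32 genes at least 99% of exon reads were placed at a single site, and in 5 (Cdt1, Gins2, Pcna, Tk1 and Ccne2) less than 60% were.

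Some markers of other cell types also moved with the genotype label. The cultures carried the basal KC markers Krt5 (4990 to 5775 RPKM) and Krt14 (5148 to 6985 RPKM) in every library, and the 7 basal KC markers summed to between 11076 and 12887 RPKM. The 5 smooth muscle markers summed to 184 RPKM in WT1, 150.9 in WT2, 518 in KO1 and 819 in KO2, and all 4 that could be tested (Acta2, Tagln, Myh11 and Cnn1) passed the threshold as higher, while Myh11 and Des were below 0.5 RPKM in every library. The 6 melanocyte markers summed to 7.54 (WT1), 7.20 (WT2), 2.30 (KO1) and 3.20 RPKM (KO2), and Tyrp1 passed as lower. Mitf went the other way, at 0.249 (WT1), 0.204 (WT2), 0.258 (KO1) and 0.315 RPKM (KO2), and Mlana overlapped between the genotypes. Summed fibroblast markers lay between 0.409 and 1.13 RPKM, immune markers between 14.9 and 21.5 RPKM and endothelial markers between 0.537 and 0.770 RPKM. In every library, 5 of the 6 fibroblast, 4 of the 6 immune and 3 of the 4 endothelial markers were below 0.5 RPKM. No marker was at 0 in every library. The smooth muscle markers were highest in the library in which the replication genes were lowest. Their part in the values of the replication genes was not tested.

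Promoter sequence was a feature that the listing of the genes had not used. RefSeq windows of 300 bases, from 250 before to 50 after a start site, were at hand for 35 of the 42 genes. For 5 genes several windows were listed, and only the first was searched. The windows of Gins2, Ccne2, Mcm4, Gins1, Pole, Gmnn and Rfc2 were not analysed here. At least 1 of the octamers TTTCCCGC, TTTCGCGC, TTTGCCGC and TTTGGCGC, on either strand, stood in 11 of the 35 windows (31.4%), and 5 windows held more than 1 match. The 11 genes were Mcm3, Mcm5, Mcm6, Mcm7, Orc1, Cdc6, Cdt1, Gins3, Pola1, Pold1 and Rfc3. Of all 27025 promoters 2.32% held such a match, and of the promoters of genes tested 4.19%. Among the wider list of replication and G1/S genes the share was 17 of 52 (32.7%), and among the mitosis genes 1 of 14 (7.14%). The forms can overlap on opposite strands, as printed for Mcm6 and Mcm5, so that matches outnumber separate sites. The 11 genes with a match had a median log2 fold change of -0.45, with values from -0.72 to -0.16, and the 24 without had a median of -0.30, with values from -0.62 to -0.03. These ranges overlap, and no test was made of the difference. Among windows without a match, the 250 upstream bases of E2f1 lay wholly in an exon of E2f1 itself. Those of Lig1 and Slbp lay wholly in exons of Zswim9 and Gm10459. A window without a match therefore does not show that a gene lacks one near another start site. A match is a string of letters and does not show that a factor is bound there.

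**Figure D4:**
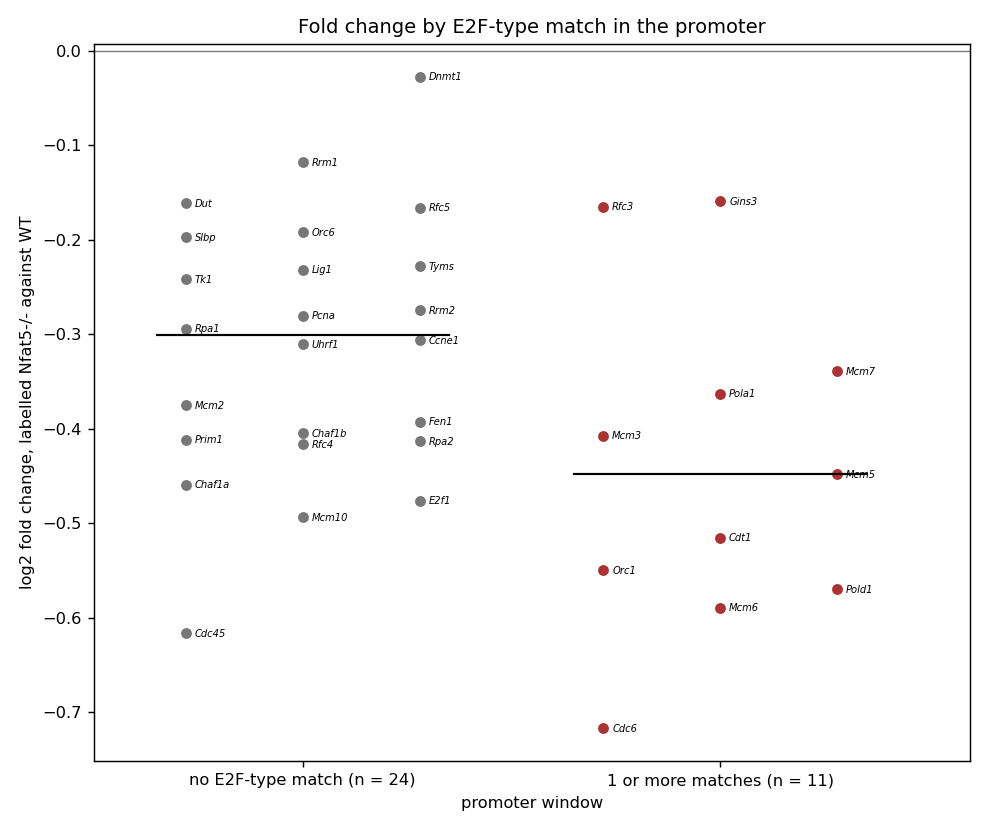
Fitted log2 fold change, KO against WT (y axis), of the 24 replication genes whose promoter window held no E2F-type match and of the 11 with at least 1 (x axis). Each point is a gene, spread sideways only to keep the names apart, and the bars mark the medians of -0.30 and -0.45.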

How the data were processed

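Polyadenylated RNA of 4 KC cultures was sequenced, 2 libraries for each of 2 labelled genotypes, grouped by sample title. The authors trimmed the reads and aligned them to GRCm38 in CLC Genomics Workbench with default settings. The authors deposited raw counts of gene, exon and intron reads for 25814 genes, and RPKM values written with decimal commas, the other deposited unit used here. RPKM values were found to be exon reads scaled to exon length and to 1 factor for each library. TPM values were not used. Depth ran from 16219445 to 23494436 gene reads, and the floor of 3 reads covers counting error only, since there were no molecular identifiers.

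Total gene reads of all 4 libraries were tested with edgeR 4.0.16 in R 4.3.3: filterByExpr (12614 genes kept), TMM factors (0.980 to 1.01), a quasi-likelihood fit with genotype as the sole term, two-sided p-values adjusted over all genes by Benjamini-Hochberg, and a threshold of 0.05. The SE of a log2 fold change is its size divided by the square root of F. The members and lists were chosen with earlier results of these data known, so no list was tested as a set. Full statistics are given, for each role, for the gene with the smallest p and the gene with the highest RPKM, and for the 3 genes with the smallest p of the wider list. Other genes named belong to the listed 42 or to the marker and mitosis lists, except Hist1h2ap, Hist1h2ah and Hist1h1c, which were chosen after their values were seen.

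Replicate numbers were shared by the genotypes in the titles. Over 10201 genes, the differences between replicates 1 and 2 correlated at r = -0.114 between genotypes. With 1 such difference in each genotype, this cannot show whether libraries of the same number shared a litter or a day. Alternatives were a replicate block, other scaling (RLE), other filters, DESeq2 1.42.0, limma-trend (limma 3.58.1) on RPKM (log2 scale, pseudocount 1 or 0.1), the reads in exons or those in exons at a single site, each library left out, and other octamer lists. A block with crossed numbers was added after seeing the data.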

Additional observations from a re-analysis of the deposited data

How the results depend on the processing

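The 160 genes called over all 12614 became 1142 under a block with crossed replicate numbers (chosen after seeing the data), 1137 with no filter on low counts, 427 with DESeq2 and between 16 and 478 with 1 library left out. Of the 42 replication genes, 13 were called under the crossed block (the 11 called with no filter, Fen1 and Mcm2), 11 with no filter (Ccne2, Cdc45, Cdc6, Cdt1, Chaf1a, E2f1, Mcm3, Mcm5, Mcm6, Pold1 and Pole), 1 with DESeq2 and 0 in every other setting, including each library left out. Of the wider 67 genes, 9 were called under the crossed block, 6 with no filter and between 0 and 2 with 1 library left out. In the fits with no filter and with the crossed block the estimated prior degrees of freedom were infinite, against 5.25 in the fit reported. The spread was then not estimated for each gene on its own. The block with the replicate numbers as labelled called 132 genes in all and 0 of the 42. The shorter forms TTCCCGC and TTGGCGC matched the promoters of 17 of the 35 genes, 6.93% of all promoters and 12.7% of the promoters of genes tested.

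With 1 library left out, the estimate changed sign in 7 genes and ranged from -0.53 to 0.074 for Orc6, -0.36 to 0.0020 for Rfc3, -0.37 to 0.094 for Rrm1 and -0.50 to 0.11 for Dut (above 0 without KO2), from -0.35 to 0.021 for Gins3 (above 0 without KO1), from -0.13 to 0.084 for Dnmt1 (above 0 without WT1) and from -0.28 to 0.058 for Gins2 (above 0 without WT2). The median over the 42 genes ran from -0.57 to -0.16 over all settings and was lowest and highest with KO1 or KO2 left out. With 2 libraries a genotype, leaving 1 out assumes that the lone library varies like the other group. The causes of these changes were not tested beyond this. Genes near the floor of 3 reads were not among the 42, whose lowest count was 52 reads (Gins3).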

Other observations

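Replication-dependent histone RNA is made in S phase and mostly lacks a poly(A) tail. Histone genes with names beginning with Hist1h, Hist2h, Hist3h or Hist4h were read from these poly(A)-selected libraries as well. Their names alone do not show which of them depend on replication. They were 67 genes, of which 24 could be tested. edgeR called 0 of the 24, with 2 at an unadjusted p under 0.05 and a lower estimate (6.47% of all genes) and 9 with a higher one (8.17% of all genes), whereas 1.27% of all genes were called. DESeq2 called 1 of 24 (3.39% of all genes) and limma-trend 0 of 25 (1.35%). The median log2 fold change was 0.53 (0.25 by limma-trend on RPKM, with a pseudocount of 1) and 17 estimates were above 0 (52.0% of all genes had one below 0), whereas those of the 42 replication genes were all below 0. Summed RPKM went the other way, with 507 in WT1, 473 in WT2, 450 in KO1 and 325 in KO2. Hist1h2ap and Hist1h2ah together held 86.3% of the sum in WT1, 85.8% in WT2, 81.2% in KO1 and 66.6% in KO2. Hist1h2ap measured 240 RPKM in WT1, 220 in WT2, 193 in KO1 and 119 in KO2 (log2 fold change -0.54 ± 0.20 SE, edgeR adjusted p = 0.284), and 24.4% of its exon reads were placed at a single site, while 0% of those of Hist1h2ah were. The other histone genes summed to 69.7 RPKM in WT1, 67.0 in WT2, 84.7 in KO1 and 109 in KO2. Hist1h1c, a linker histone gene with 94.8% of its exon reads at a single site, measured 22.2 RPKM in WT1, 20.3 in WT2, 23.3 in KO1 and 36.3 in KO2 (log2 fold change 0.51 ± 0.21 SE, edgeR adjusted p = 0.327). Only 6 of the 24 had at least 60% of exon reads at a single site, and 5 of these 6 had an estimate above 0.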
